A study of Mus musculus with 4 samples.

Results

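Interferon-stimulated genes are genes whose transcription rises when a cell senses an interferon. They were chosen here by symbol alone: every row of the deposited table whose mouse gene symbol belongs to a set of interferon-related names (the Ifi, Ifit, Ifitm, Oas, Irf, Gbp, Irgm, Isg, Parp and Slfn families, Stat2, Usp18, Mx1, Rsad2, Cxcl9 and others). This rule found 51 of the 2701 genes in the table. The GENCODE M21 annotation holds 127 entries whose symbols match, of which 117 are protein coding, and the 76 entries without a row were not analysed here. Of the 51 members, 49 were lower and 2 were higher in the knockout than in the control.

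The table comes from RNA sequencing of the pyloric stomach of C57BL/6 mice, with 2 libraries in each of 2 groups, all 8 weeks after tamoxifen. The control group (WT) carried Lats1fl/fl;Lats2fl/fl and no Cre. The other group (Lats1/2iΔLgr5, KO below) carried Lats1fl/fl;Lats2fl/fl;Lgr5-CreER, in which tamoxifen activates Cre in Lgr5-positive stem cells so that these cells and their progeny can lose the Hippo kinases Lats1 and Lats2. Both groups thus share the floxed alleles and the tamoxifen, and only KO mice carry the CreER allele, so an effect of that allele itself and one of the deletion cannot be told apart. The labels do not say whether the 2 libraries of a group came from separate mice, so p-values measure only the spread between these libraries, which may be technical. The labels name the tissue as pyloric epithelium, but RNA was taken from whole cryosections, and in such bulk RNA fewer cells of a type and less RNA per cell cannot be told apart.

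The table lists genes with an adjusted p of at most 0.05 in the authors' DESeq2 comparison, which by inference is 20.6% of 13141 genes tested (11.7% lower and 8.81% higher in KO). Every member has therefore passed that test, and "fell" and "rose" below refer to it. Whether a matching gene without a row was tested is not known here, so the number of listed members cannot be read against that share. Genes described singly were picked within each functional group, mainly by the smallest deposited adjusted p. A member said to be outside this naming rule matches the symbol rule but was added with its values in view. Levels are normalized counts, which are read counts divided by the authors' size factors. Fold changes are log2 ratios of KO to WT from edgeR on the same factors, with a standard error (SE). Listed genes held 13413629 to 17689207 counts per library, and the members held 29987 to 107155 of these. Lats1 had normalized counts of 2152 (WT 1), 1974 (WT 2), 942.5 (KO 1) and 1129 (KO 2), lower in both libraries of the group whose Lats1 alleles can be deleted, and Lats2 was not analysed here. Of 11 markers of pyloric epithelium, 6 had a row, and Gkn2, which encodes a gastrokine of surface mucous cells, was at 939248 normalized counts or more in every library.

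Type I interferons and the epithelial type III interferons (interferon lambda) signal through cell surface receptors to the kinases JAK1 and TYK2, which phosphorylate STAT transcription factors, STAT2 among them. With IRF9 these form a complex that binds the interferon-stimulated response element (ISRE) in promoters, while interferon gamma acts through JAK1 and JAK2 and a separate element, the gamma-activated site (GAS). The induced genes encode sensors of viral nucleic acid, enzymes that block viral translation and replication, GTPases that attack the vacuoles of intracellular microbes, and the signalling factors themselves, so that the response amplifies itself. In the gut and stomach lining, epithelial cells keep a low level of this program in the absence of infection and respond strongly to interferon lambda.

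The ISRE core was looked for in the members' promoters, because these genes moved together. RefSeq promoter windows of the GRCm38.p6 build, which run from 250 bases before to 50 after a gene's start, were found for 41 of the 51 members by symbol. The windows below show the core, GAAA followed by any 2 bases and a further GAAA on either strand, in capitals with its flanks, each 60 bases long and written 5′ to 3′ on the gene's strand. Shown is, for each functional group that has a match, the member with the smallest adjusted p among those with a match.
Stat2 (chr10:128270251-128270310, plus strand): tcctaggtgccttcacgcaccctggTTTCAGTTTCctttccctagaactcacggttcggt
Ifih1 (chr2:62646206-62646265, minus strand): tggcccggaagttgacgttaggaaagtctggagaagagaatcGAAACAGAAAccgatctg
Oas1a (chr5:120907511-120907570, minus strand): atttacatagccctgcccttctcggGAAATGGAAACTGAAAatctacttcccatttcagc
Ifit3 (chr19:34583348-34583407, plus strand): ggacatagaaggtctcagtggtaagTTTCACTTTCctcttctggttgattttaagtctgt
Gbp2 (chr3:142620579-142620638, plus strand): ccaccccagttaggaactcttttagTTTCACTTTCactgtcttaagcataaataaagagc
Isg15 (chr4:156200862-156200921, minus strand): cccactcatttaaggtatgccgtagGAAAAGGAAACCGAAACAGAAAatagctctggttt
Bst2 (chr8:71537568-71537627, minus strand): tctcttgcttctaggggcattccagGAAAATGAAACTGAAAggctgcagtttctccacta
Ifitm2 (chr7:140955973-140956032, minus strand): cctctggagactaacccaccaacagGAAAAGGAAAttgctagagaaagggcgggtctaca
Slfn9 (chr11:82991841-82991900, minus strand): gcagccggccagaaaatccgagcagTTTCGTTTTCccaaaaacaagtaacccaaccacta

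The first 7 of these genes fell and the last 2, Ifitm2 and Slfn9, rose, and the core stands in the windows of genes of either direction. In Isg15 3 overlapping matches form 1 run, and in Oas1a and Bst2 2 matches overlap. Of the 46 member windows (some genes have more than 1 start), 23 held the ISRE core, or 50%, against 3.44% of all 32851 windows in the RefSeq table and 3.07% of 2640 windows of listed genes outside the rule. The GAS core, TTCNNNGAA, which reads the same on either strand, was in 9 member windows, or 19.6%, against 8.30% of all windows. Both cores were in 6 member windows and overlapped in 1. The 23 members with an ISRE core in the window had a median log2 fold change of -2.74 (range -5.34 to 2.06). The 18 with a window and no match, among them Irf7, Irf9, Oasl2 and Xaf1, had -1.96 (range -4.85 to -0.68). The 10 members without a window had -2.12. These ranges overlap widely, and a link between the core and the size of the fall was not tested. A match is a run of letters and not a measured binding site, and the lack of a match says only that these letters are not in this window.

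**Figure D1:**
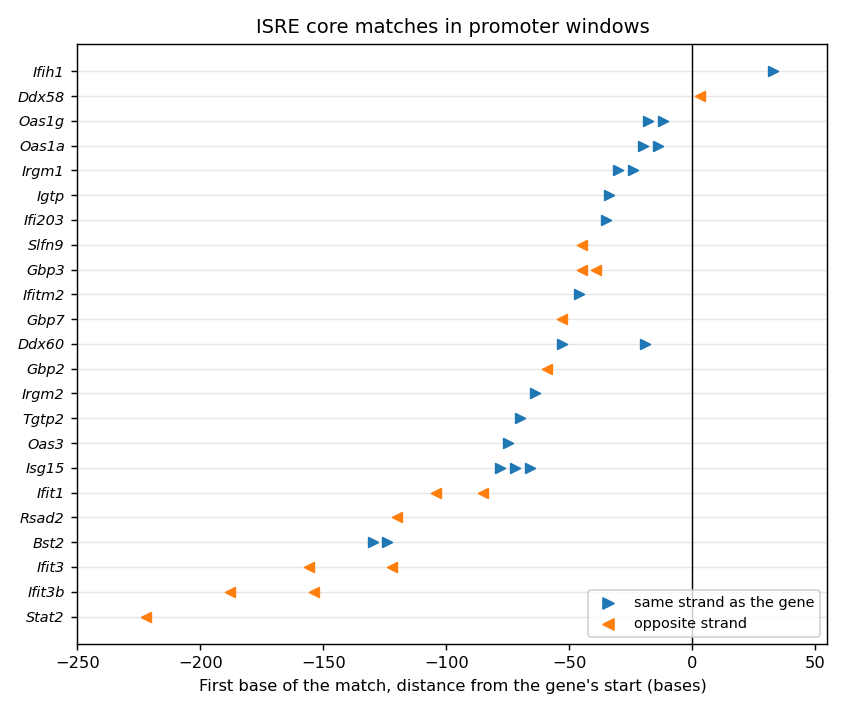
Position of each ISRE core match (34 matches in 23 members) along the promoter window, with the distance of its first base from the gene's start on the horizontal axis in bases and 1 gene per row. Of the matches, 23 lie within 100 bases before the start, and the median lies 56 bases before it.

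The transcription factors that carry the interferon signal were lower in KO, with 5 of 5 listed members down and a median log2 fold change of -1.70. Irf9 (chromosome 14, 55603571 to 55610030, GRCm38), the DNA-binding subunit of the STAT complex, had normalized counts of 1387 in WT 1, 1921 in WT 2, 565.0 in KO 1 and 467.4 in KO 2. It fell by 1.68 ± 0.23 (SE) on the log2 scale, and its adjusted p in the authors' deposited table was 1.39e-08. Its WT libraries lay closer together than those of most members, at a ratio of 1.39.

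Irf7 (chromosome 7, 141262706 to 141266481), the factor that amplifies interferon production, was at 1225 and 3558 in WT and at 341.3 and 222.0 normalized counts in KO. WT 2 stood well above WT 1, yet the lower WT library was still 3.59 times the higher KO library. Its log2 fold change was -3.09 ± 0.55 (SE), and the authors' deposited table lists it at an adjusted p of 4.76e-08. Stat2, a subunit of the same complex as Irf9, was at 1372 and 2788 in WT and 681.8 and 596.3 in KO. It fell by 1.70 ± 0.35 (SE) on the log2 scale. Irf8, a factor of myeloid and dendritic cells that the naming rule leaves out and that is added here to complete the group, was at 379.8 and 540.4 in WT and 268.0 and 207.1 in KO, a log2 fold change of -0.95 ± 0.28 (SE).

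Sensors of foreign nucleic acid were lower as well, 5 of 5 listed, with a median log2 fold change of -2.22. Ifih1 (chromosome 2, 62595798 to 62646255), which encodes the double-stranded RNA sensor MDA5, was at 2101 and 4374 in WT (normalized counts) and at 771.4 and 620.6 in KO. Dhx58, which encodes the MDA5 cofactor LGP2, was at 201.9 and 576.8 in WT and at 57.9 and 68.8 in KO. Ddx60, a helicase linked to RNA sensing, had the lowest log2 fold change of the group, -3.77 ± 0.73 (SE), from 1657 and 6228 in WT to 395.7 and 183.7 in KO.

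Ifi203, a gene of the PYHIN family, whose members include DNA sensors, was at 265.0 and 740.1 in WT and 152.1 and 78.9 in KO. Ifi203 lies among close relatives, and reads that match several of them could be lost or misassigned in counting. The RNA sensor gene Ddx58 (RIG-I), outside the naming rule, was at 393.7 and 1058 in WT and 277.1 and 273.6 in KO. Its KO libraries were almost equal, and without WT 2 its log2 fold change was -0.52 in place of -1.40, with an edgeR adjusted p of 0.117.

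The 2′-5′ oligoadenylate synthetases make a nucleotide second messenger in response to viral double-stranded RNA, and 6 of 6 listed members fell. Oas2 (chromosome 5, 120730333 to 120749853) was at 501.0 and 1840 in WT (normalized counts) and at 52.5 and 27.4 in KO. Oasl2 was at 1608 and 6137 in WT and at 188.3 and 81.3 in KO. The lower WT library was 9.54 times the higher KO library for Oas2 and 8.54 times for Oasl2, and the log2 fold changes were -4.88 ± 0.75 and -4.85 ± 0.79 (SE).

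Oas1a and Oas1g, neighbouring and similar genes whose shared reads may be lost or misassigned, had smaller folds. Oas1a was at 1330 and 2392 in WT and 503.4 and 359.5 in KO, and Oas1g was at 442.9 and 919.8 in WT and 164.8 and 136.0 in KO. Their log2 fold changes were -2.11 ± 0.34 and -2.18 ± 0.40 (SE). Within the Oas1, Oas2 and Oas3 cluster (chromosome 5, 120730333 to 120907521) the 5 listed genes ranged from -4.88 to -1.68, so neighbours in 1 locus differed in size of fall. Oas3, outside the naming rule, was at 333.2 and 1412 in WT and 46.2 and 21.9 in KO.

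Ifit genes encode proteins that bind viral RNA and hold back its translation, and 4 of 4 listed members on chromosome 19 (34550694 to 34650009) fell. Ifit1 had the largest absolute log2 fold change of the 51 members, -5.34 ± 1.07 (SE), from 324.3 and 2655 normalized counts in WT to 39.8 and 33.6 in KO. Without WT 2 its log2 fold change was -3.14, smaller in size than those of Oas2 (-3.65), Oasl2 (-3.58), Oas3 (-3.30), Isg15 (-3.27) and Rtp4 (-3.18), so its rank rested on that library. Ifit3 was at 188.0 and 748.9 in WT and 57.0 and 18.8 in KO, and its near copy Ifit3b was at 50.5 and 314.3 in WT and 11.8 and 5.47 in KO. Reads that match both Ifit3 and Ifit3b could be lost or misassigned. Ifit2 fell least, from 99.7 and 357.3 in WT to 54.3 and 62.5 in KO, and without WT 2 its log2 fold change of -1.97 became -0.77 (edgeR adjusted p = 0.173).

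GTPases of the Mx, guanylate-binding (Gbp) and immunity-related (Irgm and relatives) families fell, 9 of 9 listed, with a median log2 fold change of -2.76. Gbp2 (chromosome 3, 142620602 to 142638008), which coats bacteria and parasite vacuoles, was at 2275 and 5624 in WT (normalized counts) and at 520.6 and 608.1 in KO. In the authors' deposited table its adjusted p, 2.14e-09, was the second lowest among the members. Irgm2, a regulator of the immunity-related GTPases, was at 1214 and 3419 in WT and 369.4 and 224.3 in KO.

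Gbp3 was at 389.9 and 1494 in WT and 179.3 and 99.3 in KO, and its neighbour Gbp7 was at 416.4 and 1056 in WT and 206.4 and 122.7 in KO. These family members resemble each other, and Irgm2 overlaps Igtp on the same strand of chromosome 11, so how their reads were assigned could shift single values. The other 5 GTPases (Mx1, Igtp, Irgm1, Ifi47 and Tgtp2), named here to complete the group, had log2 fold changes from -3.37 (Igtp) to -1.67 (Mx1). Without WT 2 that of Tgtp2 was -0.89 in place of -2.17, with an edgeR adjusted p of 0.161.

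The ISG15 system attaches and removes a ubiquitin-like modifier, and 3 of 3 listed members fell. Isg15 (chromosome 4, 156199424 to 156200818), the modifier itself, was at 349.6 and 2468 in WT (normalized counts) and at 38.9 and 33.6 in KO. Both KO libraries were at a low and nearly equal level, while the WT libraries differed 7.06-fold. The log2 fold change was -5.28 ± 1.00 (SE), whereas the authors' deposited table gives a shrunken value of -1.58 and an adjusted p of 0.00695. Usp18, which removes ISG15 and dampens receptor signalling, was at 205.7 and 768.7 in WT and 40.7 and 34.4 in KO. Herc6, the mouse ISG15 ligase, was at 143.9 and 477.6 in WT and 73.3 and 40.6 in KO. Counted per kilobase of merged exons, so that genes can be set beside each other, the mean level of Isg15 was 1864 in WT, second among the 51 members after Ifi30 (11353), and 48.0 in KO. That rank rested on WT 2, at 3265 per kilobase. In WT 1 Isg15 was at 462.4 per kilobase, below Ifitm2, Samd9l, Gbp2, Oas1a and Igtp as well as Ifi30.

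ADP-ribosyltransferases of the interferon response fell, 4 of 4 listed. Parp14 (chromosome 16, 35832874 to 35871544), which acts in macrophage activation and antiviral defence, was at 2380 and 6259 in WT (normalized counts) and at 860.1 and 668.3 in KO. Parp9, which pairs with the ubiquitin ligase DTX3L, was at 1446 and 2872 in WT and 733.4 and 597.9 in KO. Parp12 was at 1586 and 3618 in WT and 718.9 and 618.2 in KO. Their log2 fold changes were -2.50 ± 0.47, -1.70 ± 0.35 and -1.96 ± 0.40 (SE). Parp10 had the smallest, -0.98 ± 0.29 (SE), which was -0.58 without WT 2 with an edgeR adjusted p of 0.0740.

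The 12 other induced proteins all fell, with a median log2 fold change of -1.81. Rtp4 (chromosome 16, 23609919 to 23614222), a chaperone of receptor trafficking and a regulator of the interferon response, had the lowest adjusted p of the members in the authors' deposited table, 2.22e-11. It was at 469.4 and 1499 in WT (normalized counts) and at 63.4 and 40.6 in KO, a log2 fold change of -4.25 ± 0.64 (SE). Xaf1, a pro-apoptotic protein, was at 408.9 and 1005 in WT and 122.2 and 73.5 in KO. Cmpk2, a mitochondrial nucleotide kinase, was at 198.1 and 1024 in WT and 75.1 and 50.02 in KO.

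Beside Cmpk2 on chromosome 12 lies Rsad2, which encodes viperin and is a member outside the naming rule. It was at 102.2 and 1043 in WT and at 21.7 and 17.98 in KO, the second widest gap between WT libraries among the members (10.2-fold). Samd9l, an antiviral and growth-restraining protein, and Ifi30, a lysosomal thiol reductase of antigen processing, were the most abundant members by normalized counts and changed less. Samd9l was at 6885 and 9515 in WT and 4588 and 3356 in KO, and Ifi30 was at 9967 and 12309 in WT and 7490 and 6368 in KO. Ifi30 had the smallest absolute log2 fold change of the members, -0.68 ± 0.17 (SE).

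Cxcl9, a chemokine that draws T cells through CXCR3, rested on 1 library. Its normalized counts were 39.1 in WT 1, 451.1 in WT 2, 38.0 in KO 1 and 19.5 in KO 2. WT 1 and KO 1 were thus nearly equal, and without WT 2 the log2 fold change was -0.45 in place of -3.10 (edgeR adjusted p = 0.520).

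**Figure D2:**
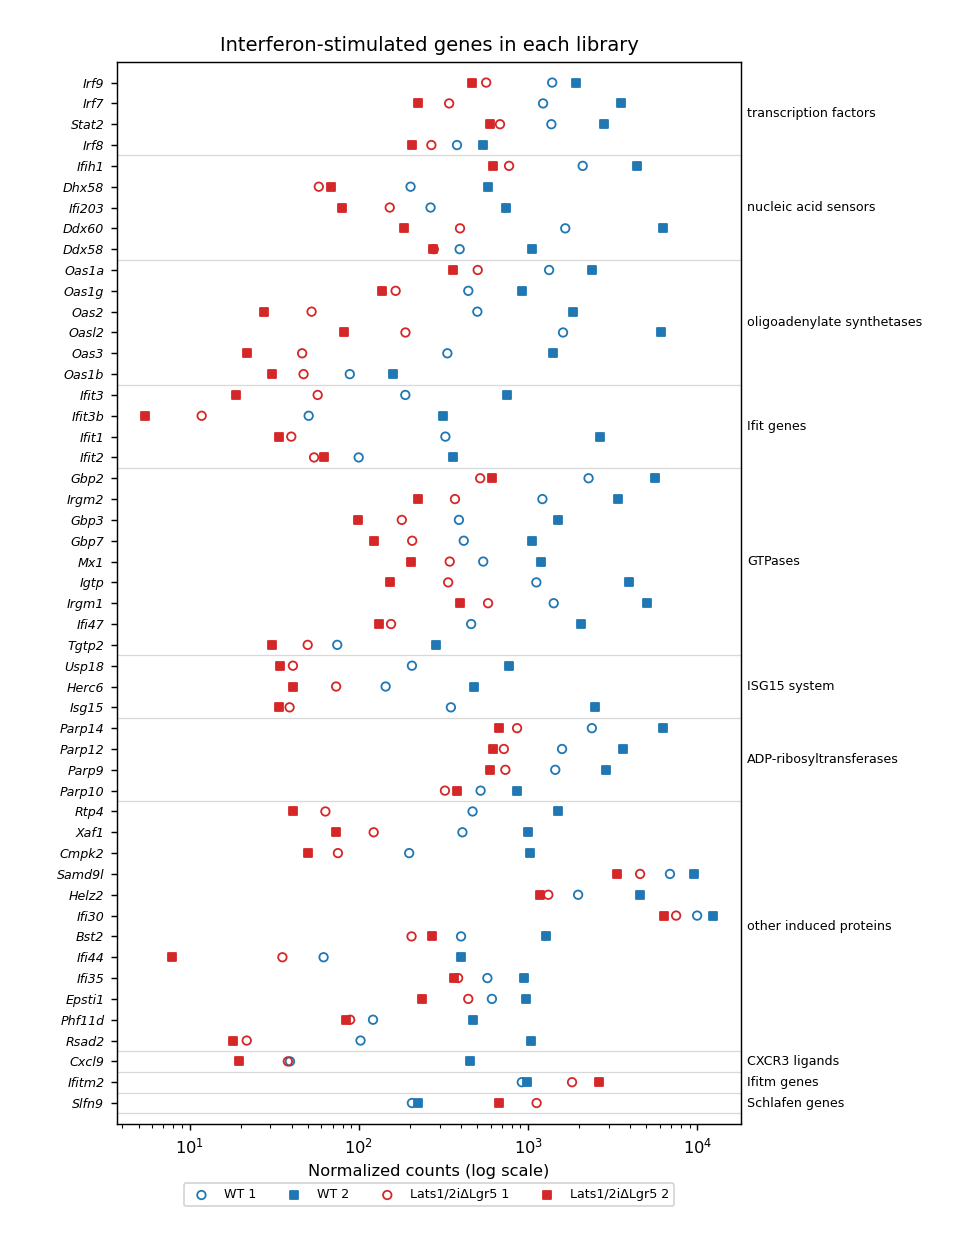
Normalized counts (horizontal axis, log scale) of 50 of the 51 members, 1 gene per row and grouped by function, in the 2 WT libraries (blue) and the 2 KO libraries (red). Both KO symbols lie left of both WT symbols in 48 rows and right of them in the rows of Ifitm2 and Slfn9.

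The members that went the other way were Ifitm2 and Slfn9. Ifitm2 (chromosome 7, 140954839 to 140955961), a membrane protein that blocks virus entry by endosomes, was at 917.4 and 989.3 in WT (normalized counts) and at 1817 and 2629 in KO. It rose by 1.22 ± 0.22 (SE) on the log2 scale, and the authors' deposited table lists it at an adjusted p of 3.86e-05. Slfn9 (chromosome 11, 82979629 to 82991830), a Schlafen gene, was at 205.7 and 223.9 in WT and at 1122 and 674.5 in KO. It rose by 2.06 ± 0.30 (SE), and the authors' deposited table lists it at an adjusted p of 7.68e-08. In both genes the WT libraries were close to each other, at ratios of 1.08 and 1.09, the lowest of the 51 members. Both belong to families of similar genes, so reads that also match relatives could be lost or misassigned.

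Over all 51 members the median log2 fold change was -2.22, against -0.50 over all listed genes. The 49 lower members compare with 57.1% of listed genes that were lower, and a log2 fold change of -2 or less was seen in 31 members and in 3.26% of listed genes. The 31 members made up 35.2% of the 88 listed genes past that bound, among them 5 of the 6 oligoadenylate synthetases and 8 of the 9 GTPases. WT and KO libraries did not overlap in any of the 51 members, but neither did they in nearly all listed genes (57.1% lower and 42.9% higher without overlap), in a table that holds called genes only. The edgeR quasi-likelihood test, adjusted over the listed genes, called all 51 members and nearly all listed genes (57.1% lower and 42.9% higher). Adjusted over the 13141 genes that the authors tested, it called none of the members and 0.0304% of genes, with 51 members at an unadjusted p under 0.05. With KO 2 left out it called none of the members and few listed genes, and the median log2 fold changes were -2.07 and -0.46. With KO 1 left out it called 35 members lower, against 32.4% of listed genes. With TMM factors computed from the listed genes it called 35 members lower and 2 higher, when 18.3% of listed genes were called lower, and the median of all listed genes moved up by 0.362 on the log2 scale.

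**Figure D3:**
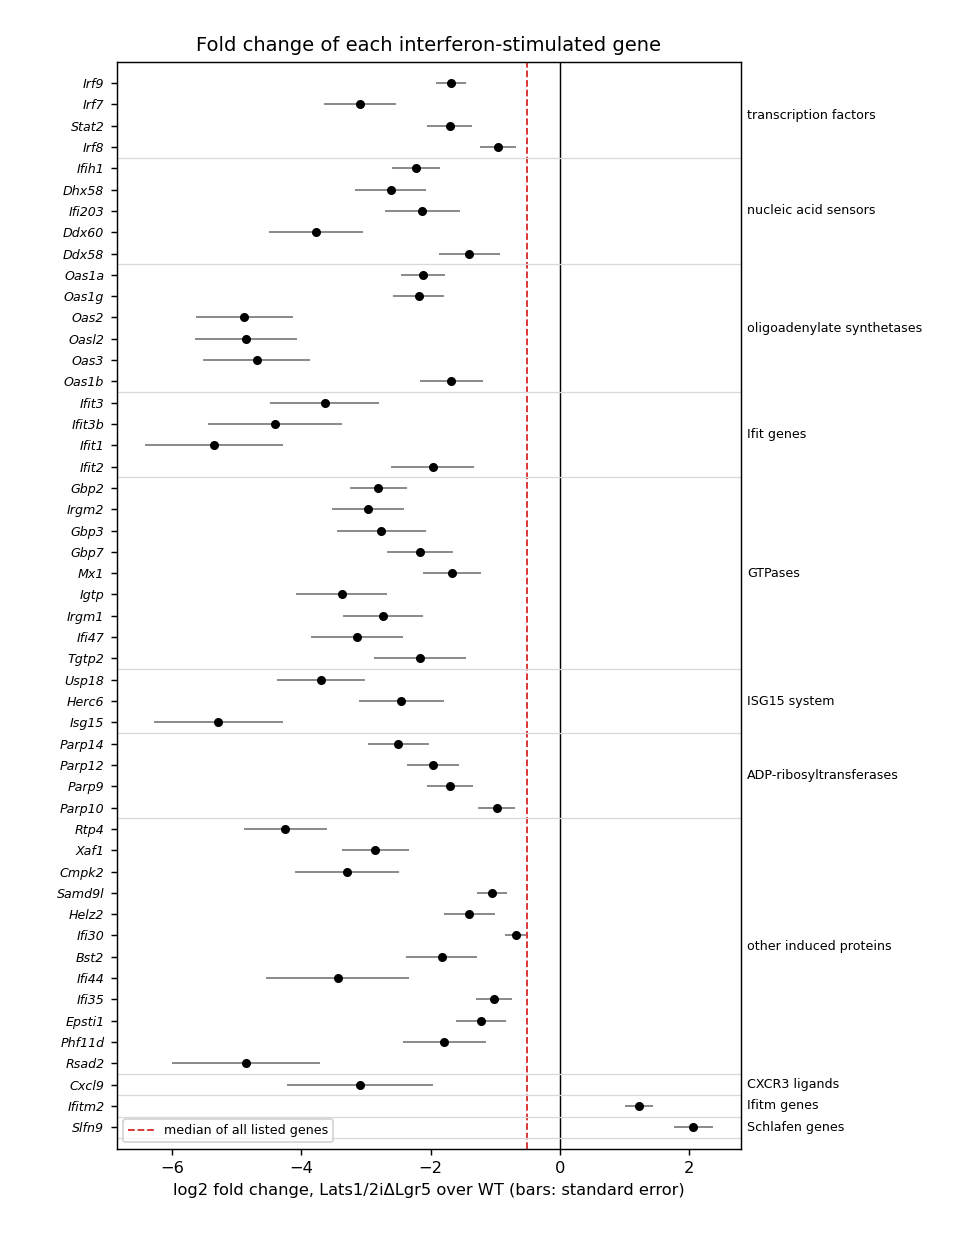
Log2 fold change of KO over WT (horizontal axis) with its standard error for 50 of the 51 members, grouped by function. The Ifit1, Isg15, Oas2, Oasl2, Rsad2 and Oas3 rows reach furthest left, and 2 rows lie right of 0. The dashed line marks the median of all listed genes, -0.50.

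The WT libraries differed from each other in the same genes. WT 2 was above WT 1 in 51 of 51 members, against 62.0% of listed genes, with a median ratio of 2.82 against 1.07. It was at least 2 times WT 1 in 38 members (74.5%) and in 4.48% of listed genes. Among listed genes that were lower, WT 2 was above WT 1 in 75.9%, with a median ratio of 1.12, and at least 2 times WT 1 in 6.10%. Members made up 31.4% of the 121 listed genes with such a ratio. By group, the ratio was at least 2 in 9 of 9 GTPases, 4 of 4 Ifit genes and 5 of 5 sensors but in 2 of 5 transcription factors. The members thus took 0.289% of listed counts in WT 1 and 0.606% in WT 2, and 0.234% and 0.211% in KO 1 and KO 2.

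WT 1 alone was at least 2 times the KO mean in 35 of 51 members and in 310 of 2701 listed genes. Its median ratio was 2.8 over the members, 1.35 over listed genes and 1.57 over those that were lower. WT 2 alone gave median ratios of 7.09, 1.43 and 1.76. Without WT 2 the median log2 fold change of the members was -1.49, and without WT 1 it was -2.83. All 49 lower members kept their direction without WT 2, as did 1541 of 1542 lower listed genes. Both WT libraries lay above both KO libraries in these 49 members, so leaving out 1 library could hardly reverse a direction. By edgeR's quasi-likelihood test without WT 2, 37 of the 49 kept an adjusted p of at most 0.05 (44.9% of listed genes were called lower in that fit). The 12 others were Irf8, Ddx58, Oas1b, Ifit2, Tgtp2, Parp10, Cxcl9, Bst2, Ifi44, Ifi35, Epsti1 and Phf11d, which are named here after their values were seen.

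**Figure D4:**
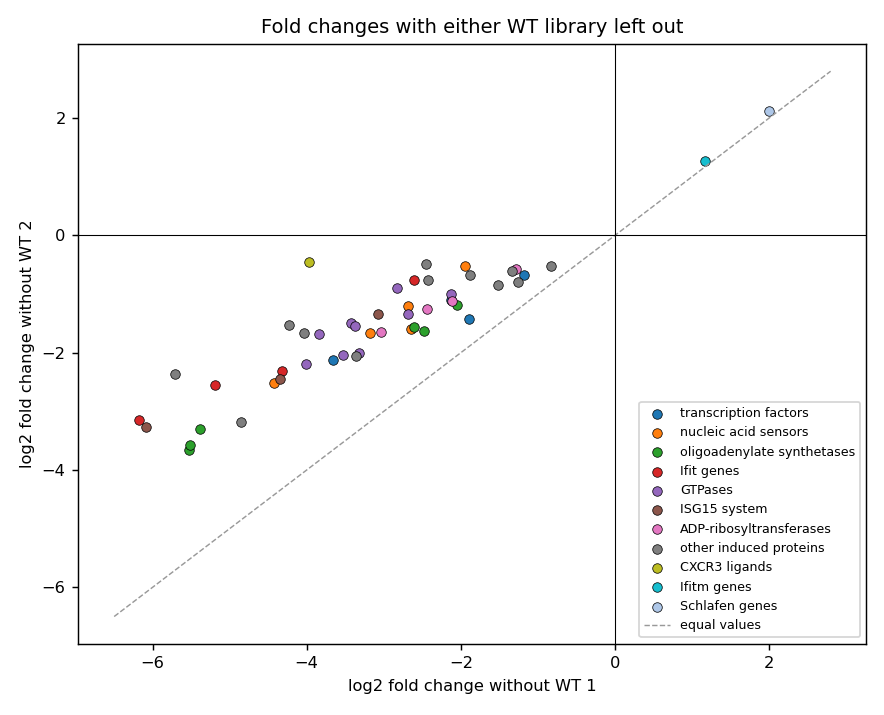
Log2 fold change of 50 of the 51 members without WT 1 (horizontal axis) against that without WT 2 (vertical axis), coloured by function, with a dashed line of equal values. The 48 lower members drawn keep values below 0 on both axes but lie above the line, while Ifitm2 and Slfn9 lie close to it.

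The order of the members also depended on how the fold change was estimated. In the authors' deposited table, whose fold changes are shrunken, the members ran from -3.13 (Rtp4) to 1.84 (Slfn9) with a median of -1.57. Isg15, Ifit1 and Rsad2 had -1.58, -1.45 and -1.21 in the authors' deposited table but unshrunken values of -5.28, -5.34 and -4.85. In these genes the WT libraries differed by at least 7.06-fold. Irf9, with WT libraries at a ratio of 1.39, had -1.57 in the authors' deposited table and -1.68 unshrunken. The gap did not follow this ratio in every member. Oas2, at a ratio of 3.67, had -2.14 in the authors' deposited table and -4.88 unshrunken. Cmpk2, at a wider ratio of 5.17, had -2.11 and -3.29.

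**Figure D5:**
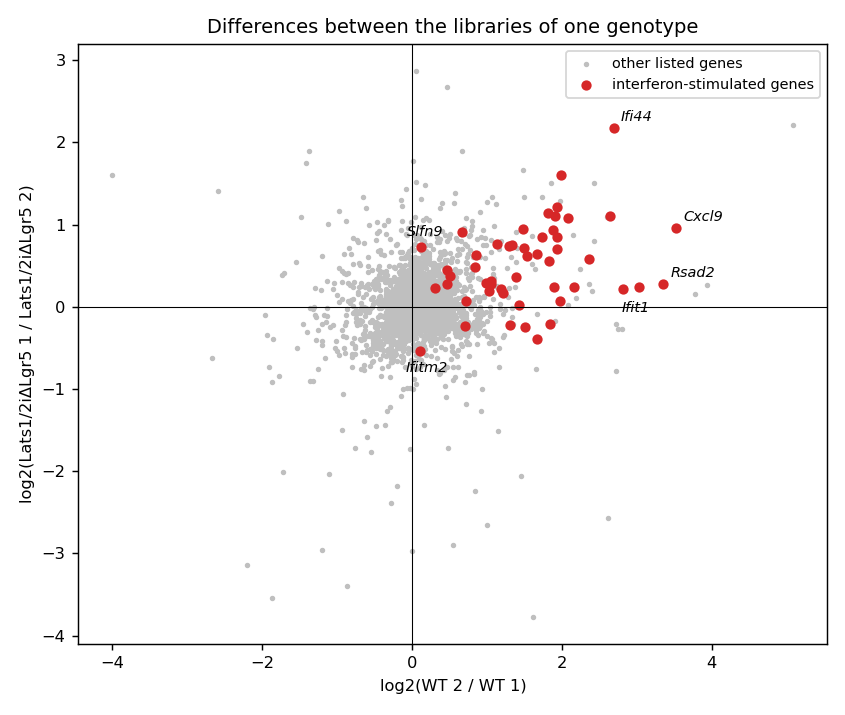
Log2 ratio of WT 2 to WT 1 (horizontal axis) against that of KO 1 to KO 2 (vertical axis) for 50 of the 51 members (red) and other listed genes (grey) with counts in all libraries. Members lie to the right of 0, with Cxcl9 furthest at a ratio of 11.5, and most lie above 0.

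Upstream of the members, 4 of 9 receptor and kinase genes of the pathway had a row, and all 4 fell by small amounts. Their median log2 fold change was -0.76, near the median of -0.73 over all listed genes that were lower. Of all listed genes 57.1% were lower. Ifnlr1 and Il10rb, the chains of the interferon lambda receptor, were at 921.2 and 1376 and at 1675 and 1569 in WT (normalized counts), and at 670.9 and 626.0 and at 1074 and 1079 in KO. Ifngr2, a chain of the interferon gamma receptor, and the kinase gene Jak2 had log2 fold changes of -0.76 ± 0.18 and -0.75 ± 0.14 (SE). Each WT library lay above each KO library in these genes, as in nearly all listed genes that were lower. Their WT libraries were within 1.49-fold of each other.

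None of the 9 interferon genes on the list, and none of the 5 brakes such as Socs1, had a row, and these were not analysed here. Of 12 genes of the induction pathway, Ticam1, the adaptor of TLR3, fell by 0.76 ± 0.23 (SE), and Cgas, the cytosolic DNA sensor, rose from 36.6 and 52.9 in WT to 116.8 and 101.6 in KO. Cgas moved against the other listed sensors, with a log2 fold change of 1.28 ± 0.40 (SE).

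Of 47 other interferon-induced genes outside the symbol rule, 26 had a row and all 26 fell, with a median log2 fold change of -1.54, against 57.1% lower and a median of -0.50 over all listed genes. This list was drawn up with earlier results of these data known. Eif2ak2, the RNA-activated kinase PKR, was at 2111 and 2855 in WT and 1134 and 1079 in KO, and the RNA-editing gene Adar was at 2986 and 4256 in WT and 1647 and 1616 in KO.

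The enzymes that attach ISG15 fell with it: log2 fold changes were -1.77 ± 0.44 (SE) for the activating enzyme gene Uba7 and -2.14 ± 0.42 (SE) for the conjugating enzyme gene Ube2l6. Dtx3l, the partner of Parp9, was at 1378 and 2704 in WT and 626.5 and 349.4 in KO. WT 2 was at least 2 times WT 1 in 16 of these 26 genes and in 4.48% of listed genes, and without WT 2 their median log2 fold change was -1.04.

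Markers of leukocytes were mostly without a row. No row was found for the 12 markers of T or NK cells, the 7 of B or plasma cells, the 5 of neutrophils or for Ptprc, and these were not analysed here. Of 12 macrophage and dendritic cell markers Cd14 had a row and was higher in KO, at 570.4 and 563.5 normalized counts against 249.9 and 219.5 in WT. Some leukocyte genes off the marker lists had rows and fell. They were picked with their values in view among listed genes with WT 2 at least 2 times WT 1. Their higher level in WT 2 thus came with the pick. Aif1, a macrophage gene, was at 87.1 and 178.7 in WT and 50.7 and 42.2 in KO, and the dendritic cell and macrophage receptor gene Clec7a was at 98.4 and 368.4 in WT and 56.1 and 63.3 in KO. Ly75, a dendritic cell receptor gene, and Lag3, a checkpoint gene of T cells, had log2 fold changes of -1.68 ± 0.55 and -2.26 ± 0.62 (SE). In these 4 genes both WT libraries lay above both KO libraries, as in 1541 of the 1543 listed genes that were lower. In the myeloid gene Mpeg1, picked likewise, WT 1 lay below KO 2. The part of such cells in the members' fall was not tested. Igkv3-2, an immunoglobulin variable gene also off the lists and picked likewise, went the other way. It was near the floor in WT, at 2.5 and 5.5, and at 111.4 and 46.9 in KO. Of 5 plasmacytoid dendritic cell markers, Bst2 and Irf8 had rows and fell, and both are themselves members. The summed level of the 6 listed epithelial markers was 4626000 and 4953000 in WT and 2544000 and 2131000 in KO. Gkn1 and Gkn2 made up most of this sum, with log2 fold changes of -1.07 and -1.11. Tff1 and Muc5ac each had -0.91, and Cdh1 and Krt8 had -0.52 and -0.60. The sum thus moved in the direction of the members but by a smaller factor, and its part in their fall was not tested.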

How the data were processed

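RNA from pyloric cryosections of 4 mouse libraries (2 WT, 2 Lats1/2iΔLgr5) was sequenced as stranded paired reads. Reads were aligned with TopHat2 2.1.1, counted with HTSeq and compared with DESeq2 on GRCm38, per the submitters' processing notes. Other settings, such as the strand option of the counting, were not given in those notes. The deposited table holds raw read counts per gene and, per the file headers, the authors' base mean (a signal averaged over size-factor-scaled counts), log2 fold change with its error, Wald statistic (a score), p-value and adjusted p-value. No adjusted p-value exceeds 0.05. The number of genes tested, 13141, was inferred by comparing deposited p-values with their adjusted forms.

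Size factors (0.792, 0.907, 1.10 and 1.28) were recovered from the deposited counts and base means, which were rebuilt to within 0.0119%. The counts were fitted with edgeR 4.0.16 (quasi-likelihood, filterByExpr, R 4.3.3) on these factors, with Benjamini-Hochberg adjustment over the listed genes. The SE is the absolute log2 fold change divided by the square root of the F statistic. Alternatives were TMM and RLE factors from the listed genes, the DESeq2 1.42.0 test on the authors' factors, and no filter. RLE factors are edgeR's form of the DESeq2 size factors. Further alternatives were adjustment over the authors' number, a replicate block, and each library left out. Symbols and exon lengths came from GENCODE M21, which matched 2698 of 2701 gene identifiers.

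The members and lists were chosen with earlier results of these data known. Genes named are, per functional group, up to 4 members with the smallest deposited adjusted p, every member that was higher in KO or whose groups overlap, the members with the largest and smallest absolute log2 fold change, and any listed pathway gene. Values of some genes that these rules name are not reported here.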

Additional observations from a re-analysis of the deposited data

How the results depend on the processing

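All 51 members kept their direction under every alternative run, and none of the 35 genes named by rule reversed. The WT and KO libraries did not overlap in any member, so leaving out 1 library could hardly reverse a direction. By edgeR's quasi-likelihood test 49 members were called lower and 2 higher, and DESeq2 on the authors' size factors and edgeR without a filter gave the same numbers. Adjusted over the number of genes the authors tested, edgeR called 0 lower and 0 higher, with 51 members and 2698 listed genes at an unadjusted p under 0.05. Unlisted genes enter that adjustment with a p of 1. Leaving out each library in turn gave 0 to 49 lower and 0 to 2 higher members, and the median log2 fold change ran from -2.83 to -1.49. The 0 came without KO 2, when few listed genes were called at all, and the cause was not tested. Such fits have 1 residual degree of freedom and assume that the lone library varies like the other group. Factors computed from the listed genes gave 35 (TMM) and 36 (RLE) lower members with medians of -1.85 and -1.80. They raised the median of all listed genes by 0.362 and 0.407. All listed genes called numbered 2698, and 1652 and 1589 with TMM and RLE factors.

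Deviations of same-numbered libraries correlated at -0.16 over all listed genes and at -0.32 over the 51 members (2 pairs). With 2 libraries per group and genes that are not independent, this cannot show whether libraries were paired. The fit with a replicate block called 47 lower and 2 higher members (53.7% of listed genes lower), with a median of -2.13. A crossed pairing, chosen after seeing the data, called 48 lower and 2 higher (56.2% of listed genes lower).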

Other observations

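Among listed genes outside the symbol rule, 83 also had WT 2 at 2 times WT 1 or more, of which 56 were lower and 26 higher in KO. Those named below were picked with their values in view. The class I antigen presentation gene B2m had normalized counts of 9519 in WT 1, 45251 in WT 2, 5226 in KO 1 and 3806 in KO 2, and Tap1, the peptide transporter subunit, was at 885.9 and 3934 in WT and 434.6 and 236.8 in KO. H2-Q5, a class I gene annotated as a polymorphic pseudogene, was at 21.4 and 329.8 in WT and 23.5 and 19.5 in KO, and only WT 2 stood apart. Il18bp, which neutralizes interleukin-18, was at 113.6 and 585.7 in WT and 77.9 and 64.1 in KO. The myeloid gene Mpeg1 was at 726.9 and 2293 in WT and 433.7 and 734.7 in KO, so its WT 1 level lay below that of KO 2. Ccnb1, which encodes a mitotic cyclin and also had such a WT ratio, was higher in KO, at 222.1 and 495.2 in WT and 873.7 and 1240 in KO.

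The KO libraries also differed in the members. KO 1 was above KO 2 in 45 of 51 members, against 53.4% of listed genes and 71.5% of listed genes that were lower. The median ratio was 1.40 over the members, 1.02 over listed genes and 1.09 over those that were lower. Across the 51 members, log2 ratios of WT 2 to WT 1 and of KO 1 to KO 2 had a Pearson correlation of 0.337 and a Spearman correlation of 0.313. Across 2697 listed genes these were 0.192 and 0.16. These values rest on the same differences as the correlation of same-numbered libraries above, with the KO ratio turned around. Genes are not independent replicates, and all points share the same 4 libraries.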
